A study of Mus musculus with 16 samples.

Results

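Memory T cells from the liver were compared with memory T cells from the draining lymph node, gene by gene, in single-cell RNA sequencing. The cells were taken by their tissue, as the names of the cells in the deposited table give it, which gave 556 liver cells and 1625 lymph node cells of the 5727 in the series. Genes were taken where their counts summed to at least 20 in the 2 tissues, which left 8895 of 9223 genes. All cells were Pmel CD8 T cells, whose transgenic T cell receptor recognizes gp100 of melanoma and pigment cells, and were labelled CD8+Thy1.1+. They came from C57BL/6 mice aged 16 weeks with melanoma-associated vitiligo, in which T cells destroy pigment cells of the skin, 45 days after tumor surgery. Each tissue has 4 of the 16 samples, whose titles differ only in an ending of the form used for sequencing lanes, and nothing names separate animals, so each tissue was read as 1 library. By the protocols in the labels, lymph nodes were dissociated mechanically, whereas the liver was pressed through a mesh, digested with collagenase and DNase and passed over a Percoll gradient. Tissue, digestion and library cannot be told apart in this comparison.

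Memory CD8 T cells divide into cells that circulate through blood and lymph and cells that settle in a tissue. Circulation is controlled by the transcription factor Klf2, which drives S1pr1, the receptor that lets a T cell leave a tissue toward the sphingosine-1-phosphate of blood and lymph. Settled cells lower both and carry adhesion molecules such as the integrin CD103, encoded by Itgae, while effector cells of either kind store granzymes, proteases that kill a bound target cell.

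Levels are pooled counts of a tissue per 1000000 counts over the listed genes (CPM). With 1 library per tissue there was no test and no p-value. Ratios carry the exact 95% interval of a ratio of counts, and shares of cells the exact Clopper-Pearson interval, both of which cover counting error only. A gene was called higher or lower where it differed at least 2-fold and the interval left out equality. Shares of cells with a count were taken after every cell was thinned to 2005 counts, which kept 518 liver and 1445 lymph node cells, so that both tissues were read at equal depth. Without thinning, shares were higher: for Klf2 91.5% and 26.3% in liver and lymph node, for Gzma 85.1% and 20.7%, for S1pr1 36.0% and 3.88%, for Itgae 42.4% and 59.7%, and for Cxcr6 89.7% and 90.9%. By this rule 336 genes were higher in liver (3.78% of those taken) and 1783 were lower (20%). The median log2 ratio of all genes was -0.45, and it ran from -0.77 in the 2224 genes with the lowest levels to -0.14 in the 2224 with the highest. Size factors, which moved every ratio by 0.07 on the log2 scale, gave 369 higher (4.15%) and 1554 lower (17.5%). Centring the ratios on the median of all genes, a choice made after the data were seen, moved them by 0.45 and gave 679 higher and 720 lower, so that 48.5% of calls were higher in liver against 15.9% on the CPM scale.

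The liver library held 1928185 counts and the lymph node library 4532333, with medians of 3095.5 and 2649 counts per cell. At equal depth the median liver cell showed 851 genes and the median lymph node cell 959. The names of lymph node and skin cells carry a 2 that those of liver and lung cells lack, and several measures split the same way. The nuclear RNA Malat1 stood at 17810 CPM in liver and 15919 in lung, against 40909 in lymph node and 37924 in skin. The 14 pseudogenes named with the ending -ps had a median log2 ratio of -1.82 for liver over lymph node, each taken relative to its parent gene, and predicted genes were called lower in 158 of 432 cases, or 36.6%, against 19.3% of the other genes. No cell barcode was shared by liver and lymph node. For this reason levels in lung and skin are given beside the main results: lung shares the form of its names with liver, and skin with lymph node.

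**Figure D1:**
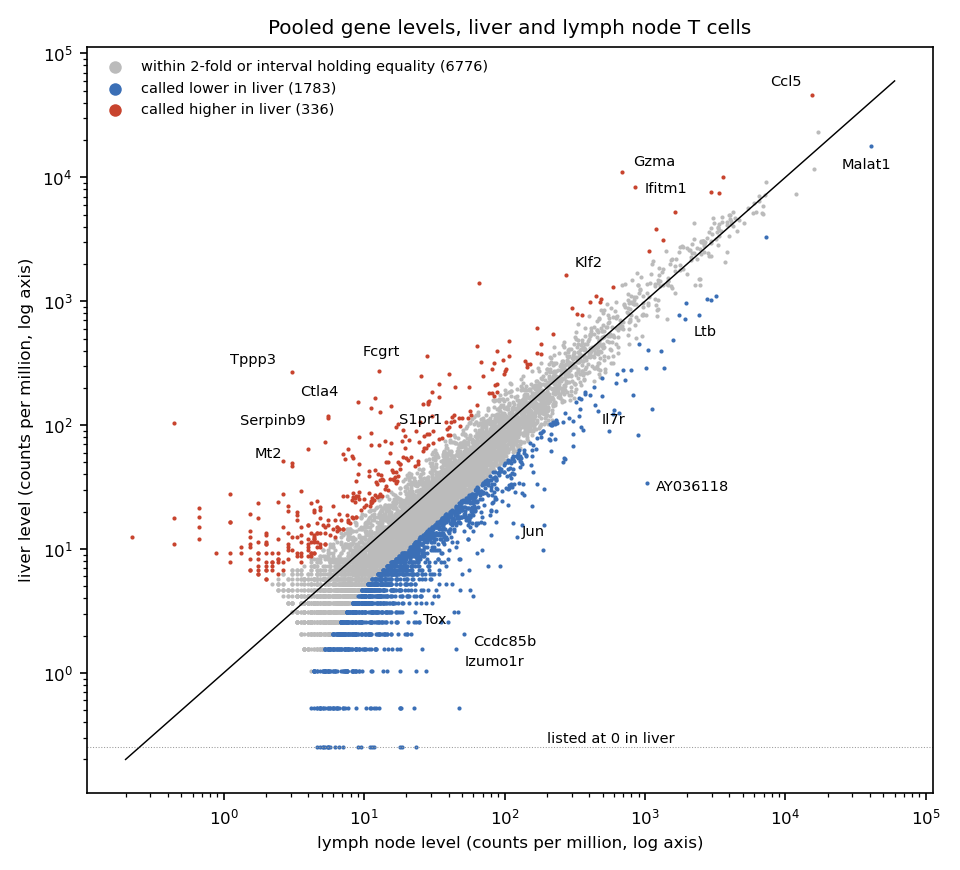
Level of each of the 8895 genes in the pooled lymph node cells (horizontal, CPM, log axis) and the pooled liver cells (vertical, CPM, log axis); the line marks equality and the 20 genes with no count in liver are drawn on the dotted line. The 336 genes called higher in liver include Gzma, Klf2 and Tppp3, while the 1783 called lower lie mostly at low levels.

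All 12 CD8 T cell markers were present in both tissues, and Cd8b1, 1 chain of the CD8 coreceptor, had a count in 98.5% of thinned liver cells and 94.7% of lymph node cells. Its partner chain Cd8a was 2.28-fold lower in liver (2.16 to 2.41), at 772 CPM against 1760, and the receptor gene Trbc1 was 2.48-fold lower (2.26 to 2.72). Trbc1 and Trbc2 are near-identical copies, so their split is uncertain. Trdc, the constant gene of the delta receptor chain, had a count in 2.51% of liver cells and 8.93% of lymph node cells, while Tcrg-C2 of the gamma chain had one in 18.9% and 6.23%.

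Markers of other cell types were read next. Of 16 hepatocyte genes only Trf was in the table, with 2 counts in liver and 1 in lymph node, and none of the stellate cell, neutrophil or red cell genes was in it. Of 12 Kupffer cell and macrophage genes 6 were in the table, and their sums were 33.2 CPM in liver and 21.8 in lymph node. Csf1r and Adgre1 were at 0 in both tissues, and Lyz2 had 0 counts in liver and 32 in lymph node. Cd68 of the same set was higher, with a count in 4.25% of liver cells and 1.11% of lymph node cells. Of 12 monocyte and dendritic cell genes 7 were in the table and summed to 1905 CPM in liver, mostly from the multi-copy Ly6c2 at 1392, and to 661 in lymph node. Cd74 of the class II pathway had a count in 8.49% of liver cells and 22.1% of lymph node cells. The 7 B cell genes in the table summed to 14.5 CPM in liver and 45.0 in lymph node. Cd79b had 26 counts in liver and 53 in lymph node, in 2.51% of liver cells and 2.15% of lymph node cells. Of 4 CD4 T cell markers Cd40lg and Izumo1r were in the table, and they summed to 13.5 CPM in liver and 100.2 in lymph node. Igkc, Ighm, Cd79a and Lyz2, which T cells should lack and which were chosen after their values were seen, had a count in 0% to 0.193% of thinned liver cells and in 0.761% to 1.94% of thinned lymph node cells. A lymph node share of 1.94% or less, no larger than the highest of these, is called a background share below. Other markers of B cells and of monocytes and dendritic cells lay above it in lymph node, among them Cd79b, H2-Aa at 3.32% and H2-Ab1 at 4.98%. The label sets no floor for genes that T cells can make, and whether such a share is background was not tested. A ratio for such a gene compares liver with a lymph node level that low. The part of these other markers in the results below was not tested. The background label is not repeated below for every gene with a share that low. Lymph node shares of 1.94% or less were also found for Fcgrt (1.94%), Mxd1 (1.80%), Fxyd4 (0.692%), Ggt1 (0.554%) and Itgax (0.346%). The same holds for Mt2, Atf3, Hk2, Lair1, Il12rb2, Ube2c and Birc5, among others.

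Genes of circulation were higher in the liver cells, with both the factor and the receptor. Klf2 reached 1616 CPM in liver and 276 in lymph node, with 1115 in lung and 134 in skin. At equal depth 86.1% of liver cells had a Klf2 count (82.8 to 89.0) against 23% of lymph node cells (20.8 to 25.2), and a positive liver cell held 4.04 counts against 2.24. S1pr1 (chr3:115710433-115715072, GRCm38, as are all gene positions here) was found in 22.8% of liver cells (19.2 to 26.6) against 2.84% of lymph node cells (2.04 to 3.83). Other members of the circulation list were higher too. S1pr4, a related receptor, stood at 453 CPM against 181, Rasgrp2, an activator of the integrin switch Rap1, at 316 against 84.1, and the integrin chain Itgb1 at 548 against 222. In lung and skin S1pr1 stood at 99.4 and 5.47 CPM, S1pr4 at 404 and 94.8, Rasgrp2 at 306 and 38.0, and Itgb1 at 673 and 139. For each of these, as for Klf2, liver and lung lay above lymph node and skin, the same division as in the cell names. Of the 4 members called lower, Ccr7, the receptor for lymph node chemokines, had 3 liver counts and 82 lymph node counts. The others were Tcf7 and Lef1, read below with the central memory genes, and the integrin chain Itgal, at 110 CPM against 232. Of the 20 members taken 6 were higher and 4 lower, with a median log2 ratio of 0.34.

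In single liver cells Klf2 and S1pr1 were found together about as often as their separate shares give. Both were seen in 20.3% of thinned liver cells (16.9 to 24.0), and the product of the shares is 19.6%. In lymph node cells both were seen in 1.73% (1.12 to 2.54), where the product is 0.652%. Among lymph node cells with Klf2, 7.53% had S1pr1, and among the rest 1.44% did. Of the 41 lymph node cells with S1pr1, 61.0% had Klf2.

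Granzyme genes were higher in liver as well, and Gzma, granzyme A, was the gene of the cytotoxic list that differed most. Gzma (chr13:113093825-113100981) reached 11049 CPM in liver and 692 in lymph node, or 16.0 times more (15.4 to 16.6), with 14636 in lung and 1401 in skin. The difference lay both in how many cells held it and in how much each held: 84.6% of liver cells and 19.0% of lymph node cells had a count, and positive cells held 21.6 and 5.72 counts. Gzmk, granzyme K, was at 325 CPM against 68.4, a ratio of 4.75 (4.14 to 5.46). Gzmb, granzyme B, was nearer in the 2 tissues, at 1695 and 884 CPM, and its ratio of 1.92 (1.83 to 2.01) was below the 2-fold rule. The cytokine Ifng was 2.21-fold higher in liver (2.0 to 2.45), while Prf1, the pore former perforin, was at 14.0 and 16.5 CPM. Of 19 members of the list 5 were higher and 2 lower, the latter being the TNF family ligands Lta and Tnfsf10, and the median log2 ratio was 0.36.

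Liver cells with granzyme A usually held granzyme B as well. Both were seen in 73.0% of liver cells (68.9 to 76.8) and in 13.5% of lymph node cells (11.8 to 15.4), where the products of the shares are 72.2% and 10.2%. In the lymph node 70.9% of cells with Gzma had Gzmb, against 49.3% of those without. In the liver the corresponding shares were 86.3% and 80.0%. Gzma with Klf2, a killing gene with a circulation gene, was seen in 73.9% of liver cells and 5.88% of lymph node cells. The products of the separate shares are 72.8% and 4.37%, so in liver the pair was about as frequent as those shares give.

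Serpins that inhibit granzymes inside the cell that makes them were also higher in liver. Serpinb9 (chr13:33003250-33017957), which blocks granzyme B, stood at 113 CPM in liver, 5.52 in lymph node, 13.6 in lung and 29.5 in skin, so that liver was above all other tissues. It was found in 15.4% of liver cells (12.4 to 18.8) against 1.18% of lymph node cells (0.687 to 1.88), the latter a background share. Among liver cells with Gzmb 17.0% had Serpinb9, and among those without, 6.58% did, as 75 of the 80 cells with Serpinb9 had Gzmb. Lymph node went the other way, at 0.777% and 1.63%, on only 17 cells with Serpinb9. Its neighbor Serpinb6b (chr13:32965209-32979067) was 12.1-fold higher in liver (8.95 to 16.7), at 136 CPM against 11.3, and 3.36-fold higher than in lung (2.84 to 3.96). Of the 6 serpins 3 were higher and 2 lower, with a median log2 ratio of 1.25. The lower ones, Serpina3f and Serpina3g, belong to a cluster of near-identical genes and are uncertain.

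**Figure D2:**
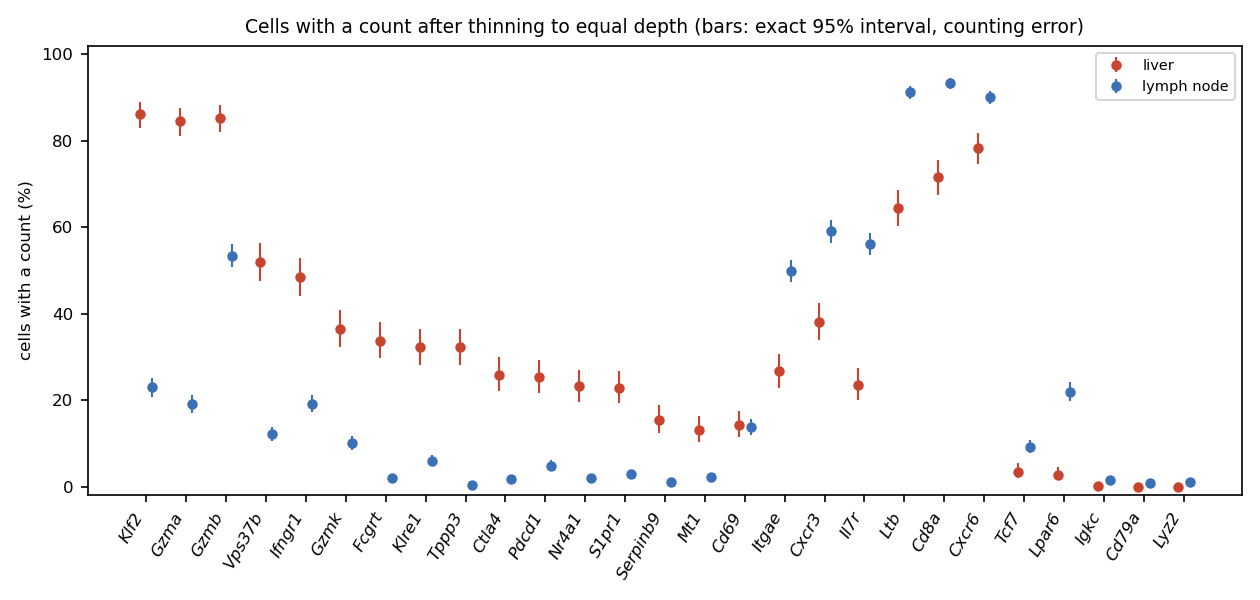
Share of cells with a count of each gene (vertical, percent) after thinning to equal depth, in liver and lymph node; points are the share in the 1 library of each tissue and bars its exact 95% interval. Klf2 and Gzma lie above 80% in liver and below 25% in lymph node, and Cd69 is alike in both. Igkc, Cd79a and Lyz2 at the right are genes that T cells should lack.

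The inhibitory receptors Ctla4 and Pdcd1, which T cells gain after stimulation, were higher in the liver cells than in both lymph node and lung. Ctla4 (chr1:60887000-60915832), which competes with CD28 for its ligands, was at 154 CPM in liver, 9.05 in lymph node, 19.1 in lung and 44.0 in skin. It was found in 25.9% of liver cells (22.1 to 29.9) against a background share of 1.73% in lymph node. Pdcd1, which encodes PD-1, was at 154, 28.5, 21.4 and 272 CPM in the same order, and liver exceeded lung 7.19-fold (5.94 to 8.72). Skin was thus above liver for Pdcd1 and below it for Ctla4. Havcr2, which encodes TIM-3, was 2.22-fold higher than in lymph node (1.58 to 3.13) but level with lung, at 36.3 CPM beside 36.5, and Lair1 was at 9.34 CPM against 0.883 in lymph node and 7.80 in lung. Tox, a factor of chronically stimulated cells, went the other way at 3.11 CPM against 22.9, as did the receptor Cd160 at 4.67 against 48.5 and Cd200 with 1 count against 83. In all 4 of 14 members were higher and 3 lower, and the median log2 ratio was -0.19, or 0.26 when centred on all genes.

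Pdcd1 and Ctla4 were found together in liver cells about as often as their separate shares give. Both were found in 6.95% of liver cells (4.91 to 9.49), and the product of their shares is 6.54%. Ctla4 was in 27.5% of liver cells with Pdcd1 and in 25.3% of the rest. Only 1 of 1445 lymph node cells had both. Among liver cells with Pdcd1, 26.7% had Nr4a1, an early gene of receptor signaling, against 22% of those without.

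Many genes induced within minutes to hours of T cell receptor signaling were higher in liver than in lymph node, and several of them than in lung. Nr4a1 (chr15:101254269-101274795), an orphan nuclear receptor, was at 167 CPM in liver, 11.9 in lymph node and 23.5 in lung, while skin stood far above at 1395. The liver ratio to lymph node was 14.0 (10.5 to 19.1), and 23.2% of liver cells (19.6 to 27.0) had a count against 2.08% (1.41 to 2.95). Its relative Nr4a2 stood at 90.8, 19.0, 23.8 and 243 CPM in liver, lymph node, lung and skin. Crem, a repressor at cyclic AMP response elements, stood at 147, 26.3, 21.3 and 495 CPM. Dusp5, a phosphatase that switches off ERK, stood at 395, 88.3, 164 and 585 CPM. All of these were highest in skin and lowest in lymph node or lung, with liver between.

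Members of the AP-1 complex were split. Jun, an AP-1 subunit, stood at 16.1 CPM in liver and 115 in lymph node, which is 7.15-fold lower (4.98 to 10.6). Junb, another subunit, was 2.69-fold lower, although 75.1% of liver cells and 79.7% of lymph node cells had a count; positive cells held 3.10 and 7.28 counts. Fos was at 59.1 and 73.3 CPM, and its interval held equality. Fosl2, at 59.1 CPM against 15.2, and Atf3, at 23.3 against 4.19, were higher. In the list 11 of 30 members were higher and 3 lower, with a median log2 ratio of 0.46, beside shares of 3.78% and 20% among all genes. Of 15 NF-kB genes 0 were higher and 1 lower. Members called higher differed in how lung stood to liver. Lung was 3.82-fold below liver in Nr4a2 (3.09 to 4.71), but Dusp2 was at 367 CPM in lung and 329 in liver, and Gadd45b at 100 and 116. The labels give an enzyme digestion for liver and lung and none for lymph node, and its part in these genes was not tested.

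The promoter of Nr4a1 is shown because it held several copies of a motif like the cyclic AMP response element, TGCGTCA on either strand. The sequence is the 250 bases before the RefSeq start on GRCm38.p6, chr15:101266596-101266845, forward strand, with the 4 matches in capitals.
Nr4a1: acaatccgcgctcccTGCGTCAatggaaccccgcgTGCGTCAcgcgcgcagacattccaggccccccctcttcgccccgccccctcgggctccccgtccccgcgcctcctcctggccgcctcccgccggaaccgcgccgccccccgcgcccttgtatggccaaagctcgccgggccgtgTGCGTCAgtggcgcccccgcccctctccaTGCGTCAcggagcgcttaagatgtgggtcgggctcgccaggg
The motif was chosen after the values were seen. It occurred in 3.62% of the 6857 promoters of genes taken that RefSeq gave and in 3.28% of those of genes called higher. The promoters of Nr4a2 and Dusp5 held 0 matches.

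Hilpda, Ddit4, Vps37b, Mxd1 and Cxcr4 were also higher in liver than in both lymph node and lung. Hilpda (chr6:29272488-29275446), which blocks the breakdown of lipid droplets and is induced in hypoxia, stood at 249 CPM in liver, 25.6 in lymph node, 31.6 in lung and 306 in skin. It was found in 29.5% of liver cells (25.6 to 33.7) against 5.26% of lymph node cells (4.17 to 6.54). Ddit4, a stress-induced brake on mTORC1, was at 214, 34.0, 56.6 and 78.4 CPM, so here liver was above skin. Vps37b (chr5:124004641-124032270), a subunit of the ESCRT-I sorting complex, was 6.73-fold higher than in lymph node (5.88 to 7.72), with a count in 51.9% of liver and 12.1% of lymph node cells. Skin was above liver for Vps37b, at 888 CPM against 432. Mxd1 (chr6:86647042-86669161), a partner of Max that opposes Myc, was at 80.4 CPM against 9.27, with skin above liver at 96.9. The chemokine receptor Cxcr4 was 7.60-fold higher (5.52 to 10.6), at 85.6 CPM against 11.3 in lymph node, 17.2 in lung and 49.2 in skin.

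Genes of glycolysis and hypoxia were split. Hk2, a hexokinase, was at 19.7 CPM against 3.31, and the glucose transporter Slc2a1 at 44.6 against 18.1. Of the later enzymes Pkm was lower, at 115 against 288, with lung at 136 beside liver and skin at 558 above lymph node. Eno1, 2.04-fold lower, and Pgk1, 13.6-fold lower (5.71 to 42.5), have near-identical processed copies and are uncertain. Ldha and Pgam1, at ratios of 1.02 and 1.05, and Gapdh at 1.65 were within 2-fold. Of 23 members 3 were higher and 5 lower. All 30 genes of oxidative phosphorylation were within 2-fold, with a median log2 ratio of -0.02.

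Few chaperones differed by 2-fold. Of 28 members 17 had a ratio above 1 and 11 below it, 24 lay above the median of all genes, yet only 2 were called higher and 0 lower, against 8 and 0 when centred on all genes. Hsp90aa1, the inducible HSP90, stood at 985 CPM in liver, 405 in lymph node, 486 in lung and 675 in skin. Hspa1a, an inducible HSP70, was 2.73-fold higher than in lymph node (2.40 to 3.10), but Hspa1b is a near-identical copy and the split is uncertain. Its counts were spread unevenly, with 54 of the 527 liver counts in 1 cell. The constitutive Hspa8 was at 2566 and 1421 CPM. For Hsp90aa1 liver was 2.02-fold above lung (1.92 to 2.14).

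Metallothioneins, small proteins that bind zinc and copper and are induced by metals and glucocorticoids, were higher in liver and in lung. Mt1 (chr8:94179082-94180327) was at 127 CPM in liver, 13 in lymph node, 155 in lung and 42.8 in skin, and Mt2, its neighbor, at 46.7, 3.09, 52.5 and 9.72. For Mt1 13.1% of liver cells (10.3 to 16.3) had a count against 2.15% (1.46 to 3.03), and 1 liver cell held 21 of the 244 counts. The zinc exporter Slc30a1 was 2.55-fold higher, on 13 and 12 counts (1.07 to 6.11). Of 10 metal handling genes 3 were higher and 1 lower.

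The promoters of the metallothionein pair are shown because the genes moved together and are the textbook targets of the metal response element. Each sequence is the 250 bases before the RefSeq start on GRCm38.p6, forward strand, at chr8:94178839-94179088 for Mt1 and chr8:94172368-94172617 for Mt2. Capitals mark TGCGCNC or TGCACNC on either strand, the core letters searched for.
Mt1: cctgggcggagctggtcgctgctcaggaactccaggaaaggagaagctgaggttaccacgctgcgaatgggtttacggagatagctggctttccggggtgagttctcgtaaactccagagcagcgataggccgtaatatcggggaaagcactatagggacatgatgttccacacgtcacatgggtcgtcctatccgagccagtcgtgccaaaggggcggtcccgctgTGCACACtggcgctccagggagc
Mt2: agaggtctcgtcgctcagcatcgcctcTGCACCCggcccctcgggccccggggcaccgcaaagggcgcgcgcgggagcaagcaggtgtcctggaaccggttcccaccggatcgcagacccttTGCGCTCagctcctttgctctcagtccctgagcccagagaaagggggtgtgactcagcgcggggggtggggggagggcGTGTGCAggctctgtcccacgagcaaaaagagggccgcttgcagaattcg
Within these 250 bases Mt1 held 1 match and Mt2 held 3, of which 1 overlaps the KLF motif CACCC. Bases outside this window were not searched. The element occurred in 30.8% of all promoters of genes taken, in 29.6% of those called higher and in 34.2% of those called lower. The KLF motif, searched on either strand because Klf2 itself was higher, occurred in 55.9% of all promoters and in 171 of 274 of those called higher, or 62.4%. The share among genes called lower was 57.0%.

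Several genes of the S100, annexin and galectin list were higher in liver at high levels. Lgals1, galectin-1, stood at 10124 CPM in liver, 3603 in lymph node, 11529 in lung and 7748 in skin. Lgals3, galectin-3, was 3.20-fold higher than in lymph node (3.09 to 3.32), and positive cells held 7.87 and 2.96 counts. Crip1, a LIM domain protein, was 2.58-fold higher (2.52 to 2.64), and the calcium binding S100a4 2.30-fold (2.22 to 2.39). The group held 7 higher and 0 lower of 18 members, all 18 lay above the median of all genes, and the median log2 ratio was 0.87. Crip1 had a count in 99.4% of liver cells and 97.1% of lymph node cells, while for Lgals3 the shares were 97.7% and 78.1%.

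Among chemokines Ccl5, which draws T cells and monocytes, had 46612 CPM in liver and 15420 in lymph node, with 42510 in lung and 8574 in skin. Almost all cells had it, 96.7% even in lymph node, and positive cells held 99.1 counts in liver against 31.8. Cxcl10 was 2.98-fold higher, but 37 of its 76 liver counts came from 1 cell, and without the highest cell of each tissue the ratio was 1.95. Ccl1, a ligand of Ccr8, was at 2.07 and 14.6 CPM beside 1658 in skin. Of 7 chemokines 3 were higher and 1 lower.

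Of the killer lectin-like receptors, shared with NK cells, Klre1 and Klrd1 were called higher. Klre1 was at 256 CPM against 40.4, a ratio of 6.35 (5.34 to 7.56), and Klrd1, the CD94 chain, at 1101 against 450. Klrk1, the NKG2D receptor, was within 2-fold, at a ratio of 1.14. Lung stood at 268 CPM for Klre1 and 1266 for Klrd1. Fcer1g, an adaptor of NK receptors, was at 20.7 CPM against 4.85, and Cd7 was 2.16-fold lower. Of 11 members 3 were higher and 1 lower, with a median log2 ratio of 0.18. The NK and ILC1 markers in the table were Gzma, Fcer1g and Tyrobp, and Tyrobp had a count in 1.35% of liver cells and 0.623% of lymph node cells.

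Among cytokine receptors more were lower than higher, although not when centred on all genes. Il7r, the receptor for the survival cytokine IL-7, was at 146 CPM in liver and 443 in lymph node, with 125 in lung and 72.9 in skin. At equal depth 23.6% of liver cells (20 to 27.4) against 56.1% of lymph node cells (53.5 to 58.6) had it. Il27ra was 3.37-fold lower (2.50 to 4.63), and the receptors for TGF-beta Tgfbr1 and Tgfbr3 were 2.46-fold and 2.64-fold lower. The exceptions were Ifngr1, a chain of the interferon gamma receptor, at 364 CPM against 108 with 48.5% and 19.2% of cells, and Il12rb2 at 13.5 against 4.85. In the list 2 of 22 were higher and 6 lower, against 3 and 2 when centred.

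Central memory genes were lower in liver. Tcf7, the factor TCF1 of self-renewing memory cells, was at 16.6 CPM against 56.0, with 3.47% and 9.20% of cells. Slamf6, a surface marker of such cells, was 7.55-fold lower (3.73 to 17.8). Lef1, a factor related to Tcf7, had 4 counts against 63, but its lymph node share of 1.52% lies in the background range. Ltb, lymphotoxin beta, was found in 64.5% of liver cells and 91.1% of lymph node cells, and positive cells held 2.36 and 4.32 counts. Lung was at or below the liver level for Tcf7, at 6.69 CPM, and for Ltb, at 703 beside 713. Of 12 members 7 were lower and 1, Socs3, was higher, and the median log2 ratio of -1.25 was the lowest of the 31 lists.

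Ligands of the TNF family that T cells show to B cells and dendritic cells were lower too. Cd40lg, also among the CD4 T cell markers above, was at 11.9 CPM in liver and 54.9 in lymph node, Tnfsf8, the CD30 ligand, at 6.22 and 49.9, and Tnfsf14 at 5.70 and 29.3. The lymph node counts of Tnfsf8 were uneven, with 42 of 226 in 1 cell. Izumo1r, the folate receptor 4 of regulatory and helper cells, had 3 counts in liver and 205 in lymph node, where 4.98% of cells had it (3.92 to 6.23). Only the costimulator Icos was higher, 2.09-fold (1.81 to 2.41). Among 19 members 8 were lower and 1 higher, with a median log2 ratio of -0.78.

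Interferon-stimulated genes were lower in liver: 14 of 31 were called lower and 0 higher. The antiviral GTPase Mx1 was at 13.5 CPM against 36.6, and Parp14 at 18.2 against 57.1. For Parp14 3.67% of liver cells (2.22 to 5.67) had a count against 10.4% of lymph node cells (8.86 to 12.1). Bst2, Irf1 and Isg15 were within 2-fold, at 296, 121 and 152 CPM in liver and 301, 109 and 230 in lymph node. Of the 31 genes 30 had a ratio below 1, and the median log2 ratio was -0.97. When ratios were centred on all genes 6 were lower and 0 higher. Lung lay near liver, at 20.1 CPM for Parp14, and skin at 13.4, so the lymph node stood above the other tissues for this gene.

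Residency genes were mixed, with more lower than higher. Itgae was found in 26.6% of liver cells (22.9 to 30.7) against 49.9% of lymph node cells (47.3 to 52.5), and Cxcr6, a chemokine receptor that holds T cells in liver sinusoids, in 78.4% and 90.0%. Their pooled ratios were close to the 2-fold rule, at 2.09-fold (1.86 to 2.35) and 2.04-fold lower (1.94 to 2.14). Under size factors neither passed it. Ccr8 was at 1.56 CPM against 25.8 and the CD49a gene Itga1 at 17.1 against 41.9. In lung and skin Itgae stood at 191 and 542 CPM, Cxcr6 at 1070 and 1346, Ccr8 at 1.98 and 39.8, and Itga1 at 23.3 and 48.6. Each was thus lower in liver and lung than in lymph node and skin, the same division as in the cell names. Cd69, which pulls the S1P receptor from the surface, was alike, at 96.5 and 94.9 CPM, and Rgs1 was 1.52-fold lower. The members called higher were Bhlhe40, Icos, Vps37b and Dgat1. In sum 14 of 29 were lower and 4 higher, beside 20% and 3.78% of all genes, with a median log2 ratio of -0.61. When centred on all genes 8 were lower and 5 higher.

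Residency and circulation genes were also read in the same cells. Among lymph node cells with Itgae, 17.9% had Klf2, against 28.0% of those without. In liver the shares were 86.2% and 86.1%. Itgae and Cd69 together were found in 3.47% of liver cells and 7.20% of lymph node cells, where the products of the shares are 3.81% and 6.84%. Itgae with Cxcr6 was seen in 22% and 47.5%, where the products are 20.9% and 44.9%. In the lymph node Gzma was found in 20.6% of cells with Cxcr6 and in 4.86% of those without, while in liver the shares were 85.0% and 83.0%. These are cells of 1 library each, so the differences describe these libraries.

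Genes of cell division were higher in liver in part. Ube2c, which drives exit from mitosis, was at 72.6 CPM against 5.30, Birc5, survivin, at 69.5 against 11.3, and Cks2, a cyclin-dependent kinase subunit, at 148 against 28.7. Mki67 and Top2a, at 13.5 and 36.3 CPM in liver, were within 2-fold of lymph node with intervals that held equality. Of 25 members 11 were higher and 0 lower. Cells with at least 2 of 5 division markers made up 3.86% of thinned liver cells (2.37 to 5.90) against 1.25% of lymph node cells (0.740 to 1.96). When they were left out 1 of 19 members was higher and 1 lower, with a median log2 ratio of -0.31, although those cells are chosen by members of the list.

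Regulators of T cell fate were read as a list of 22 lineage transcription factors. Of these 3 were higher, 1 lower and 18 not called. Among all genes 3.78% were higher and 20% lower, and 6776 of 8895 were not called. Tbx21, T-bet of effector cells, was at 112 CPM against 58.9, and Id2, which sustains effector cells, at 1343 against 2468. Bhlhe40, needed for tissue T cell metabolism, was 3.54-fold higher (3.09 to 4.05), Nfil3 2.57-fold higher and Zeb1 2.13-fold lower. Tgif1, a corepressor of TGF-beta signaling, was at 95.9 CPM against 16.8, and 16.0% of liver cells had it against 3.04%. Of 18 TGF-beta genes 3 were higher and 5 lower.

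**Figure D3:**
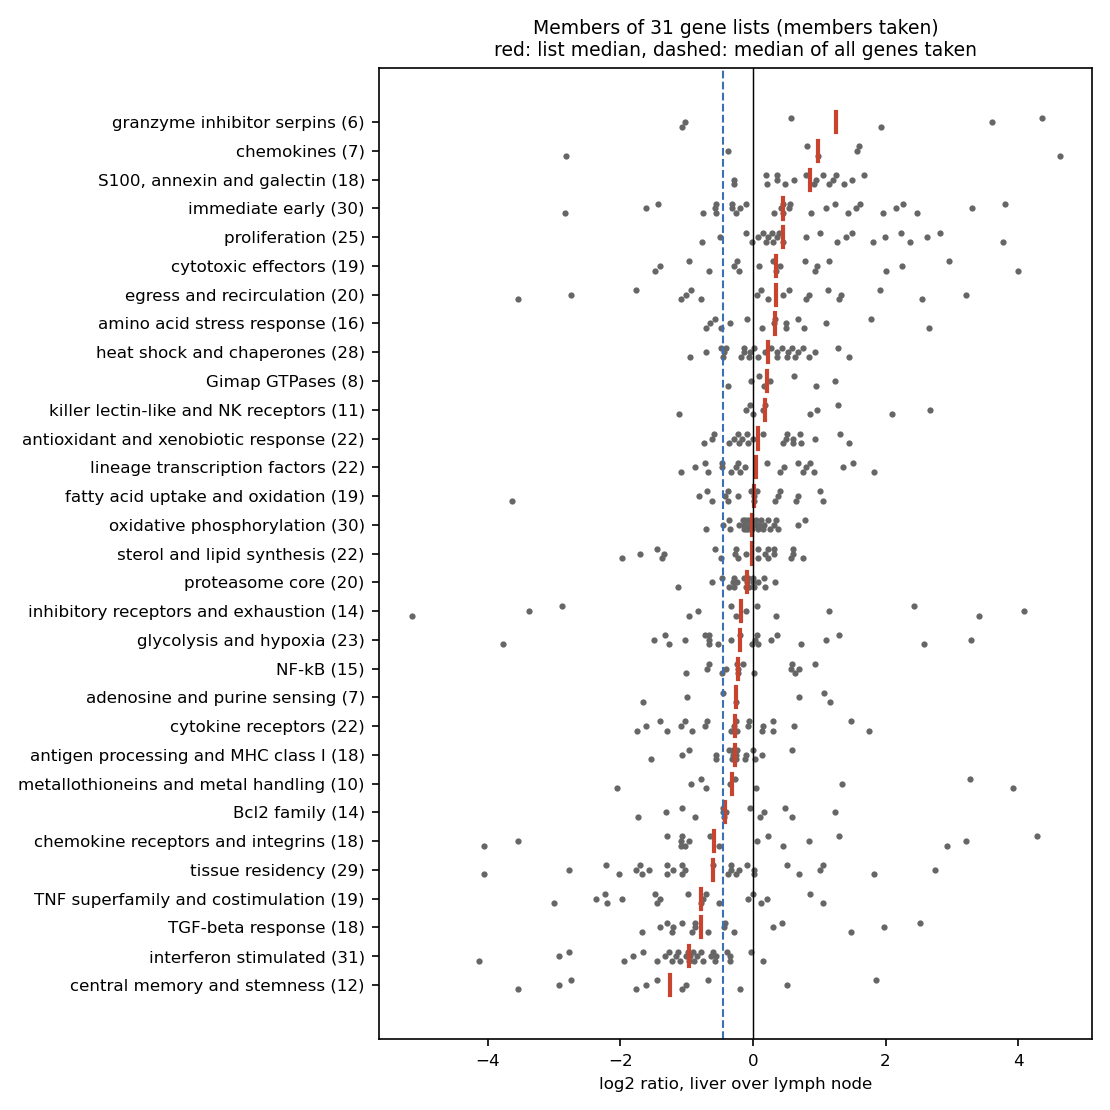
Log2 ratio of liver over lymph node (horizontal) for the members of the 31 gene lists (vertical, with the number of members taken); each point is a gene, red bars are list medians and the dashed line is the median of all genes, -0.45. The serpin, chemokine and S100, annexin and galectin lists lie farthest to the right and central memory and interferon-stimulated genes farthest to the left.

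The remaining lists are given by their numbers of calls. Of 22 sterol genes 5 were lower and 0 higher. Fatty acid genes gave 2 higher and 1 lower of 19, antioxidant genes 2 and 0 of 22, amino acid stress genes 3 and 0 of 16, and the Bcl2 family 1 and 3 of 14. Bcl2, which keeps resting T cells alive, was 2.09-fold lower (1.49 to 2.98). Among 8 Gimap GTPases, which support T cell survival, Gimap7 was higher, at 65.3 CPM against 27.6, and skin stood at 2.13. Antigen processing gave 2 lower of 18, the proteasome 1 lower of 20, and purine sensing 2 higher and 1 lower of 7. For these and every other list the share called lower is to be read beside the 20% of all genes, and the share called higher beside 3.78%.

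The gene rule named 15 genes in each direction, those with the interval bound farthest from equality. Among the higher ones, Tppp3 (chr8:105467493-105471526), a tubulin-binding protein, led with 269 CPM in liver, 3.09 in lymph node, 358 in lung and 106 in skin. It was found in 32.2% of liver cells (28.2 to 36.5) and in a background share of 0.346% of lymph node cells, and the ratio was 87.0 (51.4 to 160). Fcgrt (chr7:45092990-45103851), the neonatal Fc receptor that recycles IgG and albumin, was at 274, 12.8, 338 and 9.11 CPM in liver, lymph node, lung and skin. Fxyd4, a regulator of the sodium pump, stood at 118, 5.52, 143 and 18.8 CPM, and Ggt1, which splits glutathione outside the cell, at 63.8, 3.97, 71.1 and 0.607. Itgax (chr7:128129547-128150657), the CD11c integrin chain of dendritic cells and some effector T cells, was at 51.3, 2.65, 67.1 and 5.77 CPM. For all 5 the level in lung was above that in liver.

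Set beside the other tissues, the 15 higher genes split. In 12 of them lung was at least 2-fold above lymph node, and in 8 lung was at least 2-fold above skin, a pair that shares no library with the main comparison. In 7 liver was at least 2-fold above lung, and these were Serpinb9, Ctla4, Nr4a1, Serpinb6b, Hilpda, Mxd1 and Vps37b. Those 7 therefore differ between libraries whose names have the same form. In 4, Nr4a1, Hilpda, Mxd1 and Vps37b, skin was at or above liver. Over all genes, 128 of the 336 higher genes, or 38.1%, were also higher in lung than in skin, and 5.78% of all genes were. Those 128 were 25.0% of the 513 genes higher in lung than in skin.

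**Figure D4:**
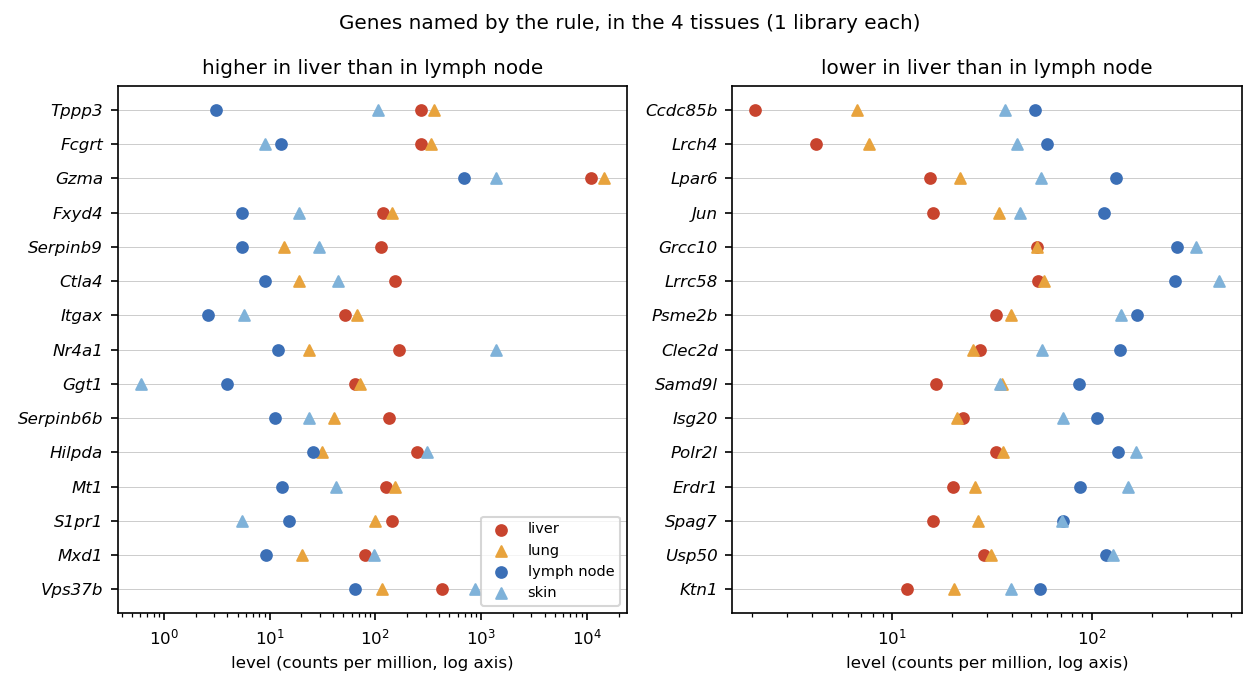
Levels (horizontal, CPM, log axis) of the 30 genes named by the rule in liver, lung, lymph node and skin, 1 library each, for genes higher in liver (left) and lower in liver (right). Lung lies within 2-fold of liver for most genes. On the left Serpinb9, Ctla4, Nr4a1, Serpinb6b, Hilpda, Mxd1 and Vps37b have liver at least 2-fold above lung. On the right Ccdc85b, Jun and Samd9l have liver at least 2-fold below lung.

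Of the 15 lower genes, all but Ccdc85b, Jun and Samd9l had lung within 2-fold of liver, and in those lung was above liver. Lpar6 (chr14:73237895-73243294), a receptor for lysophosphatidic acid, was found in 2.70% of liver cells (1.49 to 4.49) against 21.9% of lymph node cells (19.8 to 24.2), at 15.6 CPM and 133, with 22.1 in lung and 55.6 in skin. Clec2d (chr6:129180615-129186534), a ligand of NK receptors, was 5.04-fold lower (3.80 to 6.81), and Isg20 (chr7:78913424-78920396), an interferon-induced nuclease, 4.65-fold lower (3.41 to 6.49). Samd9l, an interferon-induced growth brake, was at 16.6 CPM against 86.3. Ccdc85b, a small coiled-coil protein, had 4 counts in liver and 235 in lymph node. Grcc10 and Lrrc58 were 5.03-fold and 4.88-fold lower, with skin above lymph node for both.

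Of these 15, lung was at least 2-fold below lymph node in 15 and at least 2-fold below skin in 12, and liver was at least 2-fold below lung in 3. Psme2b is a near-identical copy of Psme2 and Erdr1 has no single position, so both are uncertain. Polr2l, Spag7, Usp50, Ktn1, Lrch4 and Jun completed the set. Over all genes 581 of 1766 lower genes, or 32.9%, were also lower in lung than in skin, which is 43.4% of the 1339 lower there, or 15.1% of all genes. Among genes outside the rule, chosen after their values were seen, the predicted gene Gm4208 was at 104 CPM in liver and 106 in lung but had 2 counts in lymph node and 0 in skin. The clone AY036118 was at 34.2 and 43.9 CPM in liver and lung against 1040 and 2585. The multi-copy genes Ly6c2, 21.3-fold higher (18.8 to 24.0), and Gstp1, 19.2-fold lower (12.2 to 32.1), followed the same division of libraries.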

How the data were processed

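The table deposited by the authors holds counts per gene and cell, and the sources used here do not say whether they count molecules or reads. Per the submitters' processing notes, Bowtie, RSEM and mm10 were used. Filters applied before deposit are not stated there, and no further cell was removed. Cells were assigned to a tissue by the start of their column names, and 0 columns were left without one. For each tissue the counts of all cells were added and scaled to 1000000. A gene was called at 2-fold with a 95% conditional binomial interval that left out equality, and a gene at 0 was set at 3 counts. Cells were thinned to 2005 counts, the 10th percentile, and 38 liver and 180 lymph node cells lay below. Scrublet (scanpy 1.11.5, expected rate 0.05) marked 17 liver and 8 lymph node cells as doublets, which were kept and left out in an alternative. The 15 genes named in each direction were those with the interval bound farthest from equality among called genes at 50 CPM or more in the higher tissue and seen in 10% of its cells. Ribosomal, mitochondrial, receptor, predicted, pseudogene, histone and multi-copy genes could not be picked this way, and list members could be named too. The lists, pairs and members were chosen with earlier results of these data known. The 31 lists hold 706 entries, of which 584 are in the table. Positions are from GENCODE M21. Promoters and their sequences are from RefSeq, for 6857 of the 8895 genes. The ratios were checked on simulated counts. Python 3.11.15, numpy 2.4.6, scipy 1.17.1 and pandas 2.3.3 were used.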

Additional observations from a re-analysis of the deposited data

How the results depend on the processing

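The 336 higher and 1783 lower genes became 679 and 720 when ratios were centred on the median of all genes. Centring was chosen after the data were seen, and it kept the 8895 genes and the 2-fold rule. The numbers were 171 and 825 among the 5601 genes with a summed count of at least 100. At 4-fold they were 109 and 388, and at 1.5-fold 562 and 2919. In the alternatives of minimum count and fold, fewer genes are tested or the rule is changed by construction. Counts stayed within 1.5 times under size factors, a mean over cells (313 and 1771), thinning (267 and 1418), a minimum of 10 counts, and without doublets, cycling cells, the highest cell of each gene, or multi-copy and related genes. Among 49 genes followed singly no called ratio changed sign, and all 30 genes named by the rule kept their call under the 10 alternatives run for them. Gzmb reached 2.01 under size factors and 2.61 when centred. Itgae and Cxcr6 lost their call under both, Cxcr6 also with a mean over cells and without cycling cells, and Cd8a and Ltb when centred. Centring put the list medians of inhibitory receptors (0.26), glycolysis (0.25), oxidative phosphorylation (0.43), the proteasome (0.35), sterol genes (0.43), NF-kB (0.22), cytokine receptors (0.18), metal handling (0.14), antigen processing (0.17), purine sensing (0.18) and the Bcl2 family (0.03) above 0. Shares of cells moved past their interval in 38 of 50 cases without thinning and in 47 of 50 at 1000 counts per cell, and for 25 of 25 genes the tissue with the larger share stayed the same. The medians of oxidative phosphorylation, sterol, lineage factor, fatty acid, antioxidant and amino acid stress genes crossed 0 under at least 1 other alternative. No paired analysis was possible because each tissue was 1 library and the table does not split its cells by sample number. Depth limits low genes: 3 counts equal 1.56 CPM in liver and 0.662 in lymph node, and intervals do not cover differences between animals.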
